A study of Mus musculus with 2 samples.

Results

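The apoptosis machinery of whole mouse embryos was examined at embryonic day 10.5, as 39 genes of the Bcl2 family, the caspases with their activators and inhibitors, and the death receptor complexes. The genes were taken by symbol and matched to the deposited loci by Ensembl identifier. All 39 had a locus among the 34624 loci of the series. In the deposited files a locus holds 1 gene or, where genes overlap, several of them joined into a single value. A separate locus was available for 30 of the 39, and 9 were measured only together with other genes (23.1%, against 11.5% of protein-coding loci), so that the value of a joined locus cannot be given to 1 of its genes. Casp9 had both a locus of its own and another that was joined with Cela2a, which gave 40 loci in all. The embryos came from CBA/Ca×C57Bl/10 crosses, were taken at the age of 10.5 days after conception and received no treatment. Total RNA of the whole body was sequenced in 2 replicates, and the series holds 1 group. Neither sample's labels state if single or pooled embryos were used, so the spread between the replicates may be technical.

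Apoptosis is the programmed death by which an embryo removes cells, for instance between the digits and among young neurons. In the mitochondrial pathway, BH3-only proteins act on the pro-survival members of the Bcl2 family and on the effectors Bax and Bak1, which permeabilize the outer mitochondrial membrane. Cytochrome c then binds Apaf1 and activates Casp9. In the death receptor pathway, receptors such as Fas recruit Fadd and Casp8, and both routes end in the executioner caspases, which inhibitor of apoptosis proteins restrain.

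Reads in loci summed to 18318181 in replicate 1 and to 117522171 in replicate 2, so low values of replicate 1 rest on few reads. Levels are given as RPKM, reads scaled by the authors for transcript length and library size, in replicate 1 and then in replicate 2. All 10 marker genes fixed for the tissues of a whole embryo (blood, heart, neural tissue, limb mesenchyme, endothelium and liver bud) reached 1 RPKM in both replicates. Their levels summed to 3695 and 10256 RPKM, and the libraries stood apart in the embryonic globin gene Hbb-y, at 1746 and 6474 RPKM. Of 5 trophoblast and decidual markers 2 reached 1 RPKM in both, Prl2c2 (5.20 and 3.07 RPKM) and Prl8a2 (1.23 and 6.38 RPKM). Prl3b1 (1.90 and 0.970 RPKM) and Prl3d1 (0.204 and 0.824 RPKM) did not. Tpbpa, which marks spongiotrophoblast, had 0 reads in both. The list summed to 8.54 and 11.2 RPKM. In whole embryos, fewer cells of a type and less RNA per cell cannot be told apart.

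A gene counted as detected where both replicates reached 1 RPKM. By this rule 33 of the 39 apoptosis genes were detected, against 49.4% of all loci and 65.1% of protein-coding loci. All 9 genes in joined loci were among the 33, and 24 of the 30 with a locus of their own were detected. The median level of the 39 genes was 28.4 and 19.4 RPKM, against 8.38 and 5.52 RPKM for protein-coding loci and 1.76 and 1.00 RPKM for all loci. At 10 RPKM or more in both replicates stood 25 genes, and at 50 RPKM or more 9. The 6 genes under 1 RPKM were the BH3-only genes Bik and Hrk, the inflammatory caspases Casp1, Casp4 and Casp12, and the skin caspase Casp14. All 6 were under 1 RPKM in each replicate taken alone, so the same genes fell short in both libraries.

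The promoters of detected and undetected genes are shown here because they differed in a feature that neither the gene list nor the level rule used, the number of CpG dinucleotides. The windows hold 250 bases before and 50 bases after a transcription start, 5′ to 3′ on the strand of the gene, from RefSeq on GRCm38.p6, a later build than the mm9 of the read processing. Capitals mark CpG dinucleotides. Where RefSeq lists several starts for a gene, the window with the most CpG was taken. Mcl1 at chr3:95658471-95658770 (plus strand), Bax at chr7:45466849-45467148 (minus strand) and Casp8 at chr1:58802252-58802551 (plus strand) were detected. Hrk at chr5:118169514-118169813 (plus strand), Casp1 at chr9:5298267-5298566 (plus strand) and Casp14 at chr10:78718244-78718543 (minus strand) were not.
Mcl1: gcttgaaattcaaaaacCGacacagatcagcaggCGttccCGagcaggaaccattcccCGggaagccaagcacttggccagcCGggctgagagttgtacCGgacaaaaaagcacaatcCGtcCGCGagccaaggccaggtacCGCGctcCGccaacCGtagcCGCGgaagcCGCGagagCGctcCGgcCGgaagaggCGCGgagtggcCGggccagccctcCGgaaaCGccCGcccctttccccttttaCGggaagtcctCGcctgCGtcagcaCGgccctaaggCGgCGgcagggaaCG
Bax: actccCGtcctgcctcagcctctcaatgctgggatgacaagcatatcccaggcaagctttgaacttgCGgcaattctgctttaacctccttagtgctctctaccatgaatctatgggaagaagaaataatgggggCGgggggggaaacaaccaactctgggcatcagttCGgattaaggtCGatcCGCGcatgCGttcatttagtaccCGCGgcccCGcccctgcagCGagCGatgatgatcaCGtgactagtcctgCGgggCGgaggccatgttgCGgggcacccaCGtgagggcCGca
Casp8: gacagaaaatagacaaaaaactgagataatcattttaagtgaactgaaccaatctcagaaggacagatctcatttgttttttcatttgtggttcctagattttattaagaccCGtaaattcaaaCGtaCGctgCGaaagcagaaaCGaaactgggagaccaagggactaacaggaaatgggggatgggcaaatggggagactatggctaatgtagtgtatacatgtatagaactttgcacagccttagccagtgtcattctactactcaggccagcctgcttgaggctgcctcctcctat
Hrk: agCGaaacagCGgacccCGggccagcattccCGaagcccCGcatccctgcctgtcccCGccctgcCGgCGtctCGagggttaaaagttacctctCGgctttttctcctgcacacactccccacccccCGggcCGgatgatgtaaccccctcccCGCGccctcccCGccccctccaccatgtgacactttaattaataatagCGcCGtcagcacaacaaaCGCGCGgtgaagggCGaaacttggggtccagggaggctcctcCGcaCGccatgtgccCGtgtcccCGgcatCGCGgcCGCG
Casp1: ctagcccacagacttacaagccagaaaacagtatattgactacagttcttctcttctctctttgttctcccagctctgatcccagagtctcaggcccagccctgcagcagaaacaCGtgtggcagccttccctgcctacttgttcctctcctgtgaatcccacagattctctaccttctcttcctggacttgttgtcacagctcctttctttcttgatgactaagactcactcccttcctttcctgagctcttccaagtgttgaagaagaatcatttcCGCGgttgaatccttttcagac
Casp14: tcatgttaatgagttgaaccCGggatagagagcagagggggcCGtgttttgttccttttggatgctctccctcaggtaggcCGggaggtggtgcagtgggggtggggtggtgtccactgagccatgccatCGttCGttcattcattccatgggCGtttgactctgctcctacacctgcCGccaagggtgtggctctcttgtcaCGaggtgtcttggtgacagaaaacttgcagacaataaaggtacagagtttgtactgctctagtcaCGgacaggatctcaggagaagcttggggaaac

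The windows of Mcl1, Bax and Hrk held 33, 19 and 29 CpG, those of Casp14, Casp8 and Casp1 held 9, 5 and 3. A promoter window was found for 34 of the 39 genes. It held a median of 22 CpG over the 29 detected genes with a window and of 5 over the 5 undetected ones, against 8 over all 27025 promoters. The ratio of observed to expected CpG was 0.6 or more in 22 of the 29 detected genes and in 1 of the 5 undetected ones, against 38.3% of all promoters. Hrk was that 1 gene, with a ratio of 0.96. Of the other undetected genes with a window, Casp1, Casp4 and Casp12 are neighbours on chromosome 9. The undetected windows are thus few and not all independent cases. Casp8 went the other way: its window had a ratio of 0.38, like that of Casp4, yet it stood at 16.7 and 15.3 RPKM. The same contrast was present over the whole series. Among protein-coding genes with a locus of their own, 90.4% of the 6929 at or over a ratio of 0.6 were detected, and 33.1% of the 6212 under it. With joined loci included, 22 of the 23 apoptosis genes at or over that ratio were detected, and 7 of the 11 under it. Under the ratio, 5 of the 9 apoptosis genes with a locus of their own were detected. The detected protein-coding genes of the series with their own locus numbered 6264 at or over the ratio and 2056 under it. A high share such as 22 of 29 is thus not particular to the apoptosis genes, although the 22 of 29 include joined loci. The GC box GGGCGG, searched on both strands, was in 23 of the 34 windows (67.6%, against 37.3% of all promoters), CCAAT in 10 (29.4% against 37.4%) and TATAAA in 1, that of Cflar (2.94% against 13.7%). These matches describe letters in a window and do not show that a factor binds. GGGCGG itself holds a CpG, and its share among promoters of like CpG content was not computed. It cannot be read as a trait apart from the CpG number.

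**Figure D1:**
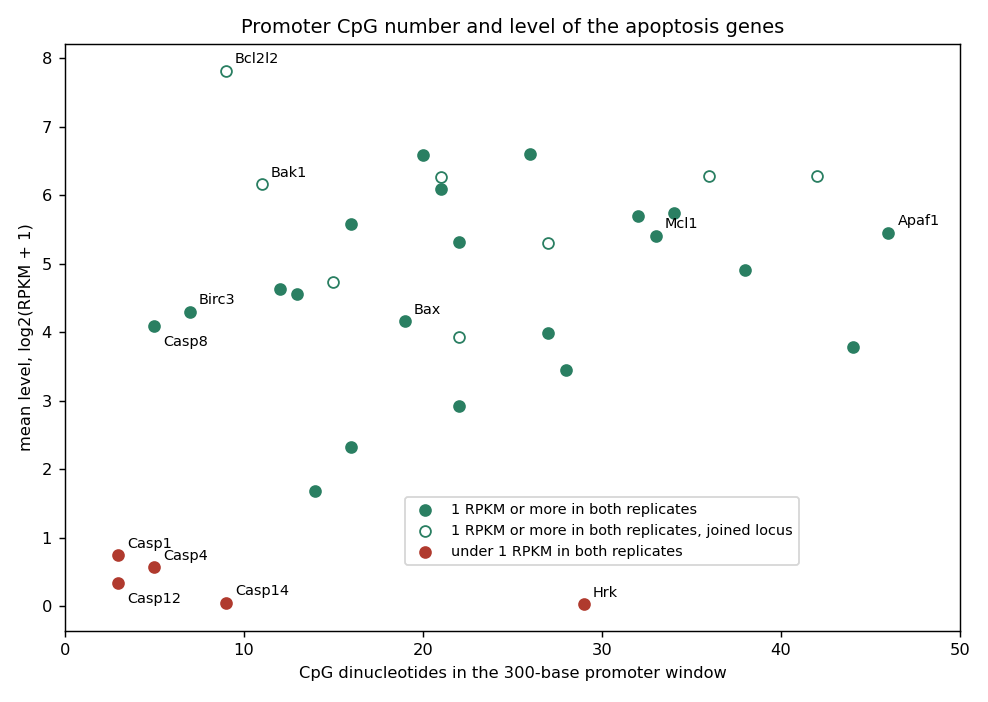
CpG dinucleotides in the 300-base promoter window (x axis) against the mean level of both replicates as log2(RPKM + 1) (y axis) for the 34 apoptosis genes with a window, with open points for joined loci. The undetected genes sit at the bottom, 4 of them at 9 CpG or fewer and Hrk at 29, while detected genes spread over windows with 5 to 46 CpG.

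All 4 pro-survival genes of the Bcl2 family, whose proteins hold the effectors in check, were detected, with a median of 46.7 and 33.5 RPKM. The short-lived guardian Mcl1 stood at 50.5 and 32.5 RPKM and Bcl2l1, which encodes Bcl-xL, at 42.9 and 34.5 RPKM. Their order changed between the replicates, with a difference of 0.07 ± 0.22 on the log2(RPKM + 1) scale (SD, n = 2). Bcl2, the founding member, was lower, at 15.6 and 9.80 RPKM. Mcl1 exceeded it by 1.63 in each replicate on the same scale, and Bcl2l1 did so by 1.56 ± 0.22.

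Whether such differences exceed the spread between replicates was judged against a limit, here 1.20. The limit was 2 times the SD of the log2 ratio between the replicates over all loci at the same level, taking the larger SD of both genes, and both replicates had to show the same sign. Mcl1 and Bcl2l1 thus both lay above Bcl2 beyond the replicate spread, and they did not differ beyond it from each other. No p-value is given, since an exact sign-flip test over 2 replicates cannot go below 0.5, two-sided. Of 32 pairs of genes set against each other, 18 differed beyond the spread. By the same rule 72% of all pairs of protein-coding loci with reads did so. Of the 32 pairs 5 held an undetected gene, of which 4 were beyond the spread. Of the 27 pairs of detected genes 14 were, against 64.6% of all pairs of protein-coding loci detected in both replicates, so the count of pairs does not exceed this background. Bcl2l2, which encodes the pro-survival protein Bcl-w, had the highest value of the 39 genes at 189 and 260 RPKM, but its locus was joined with Pabpn1, a gene of a nuclear poly(A)-binding protein, and with Gm20521. That locus exceeded Bcl2 by 4.05 ± 0.76, beyond its limit of 2.15.

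The effectors Bax, Bak1 and Bok were all detected, with levels that were far apart. Bax stood at 14.3 and 19.4 RPKM and exceeded Bok, a relative that can act without the other effectors, at 5.35 and 2.68 RPKM, by 1.87 ± 0.85, beyond the limit of 1.16. Bak1 had the highest value of the effectors, 82.6 and 58.0 RPKM, in a locus joined with Ggnbp1 and Zbtb9, which was above Bax in both replicates (Bax minus Bak1 -1.99 ± 0.65). Bax and Bcl2, whose ratio is often used to describe readiness for apoptosis, could not be ranked. The difference of Bax minus Bcl2 on the log2 scale was -0.12 in replicate 1 and 0.91 in replicate 2. Bax lay below Bcl2l1 in both replicates (-1.16 ± 0.51), within the limit of 1.20.

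Summed RPKM of the pro-survival genes was 2.91 times that of the effectors in replicate 1 and 4.20 times in replicate 2. Most of both sums came from the joined loci of Bcl2l2 and Bak1. Over the genes with a locus of their own (Bcl2, Bcl2l1 and Mcl1 over Bax and Bok), the ratio was 5.54 in replicate 1 and 3.48 in replicate 2. The pro-survival sum was the larger in both replicates and both ways of counting, and both ways summed more pro-survival genes than effectors. The replicate with the higher ratio changed. Without the Bcl2l2 locus but with the Bak1 locus kept, the order depended on the replicate. The pro-survival sum was then 109 and 76.8 RPKM, and the effector sum 102 and 80.0 RPKM.

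**Figure D2:**
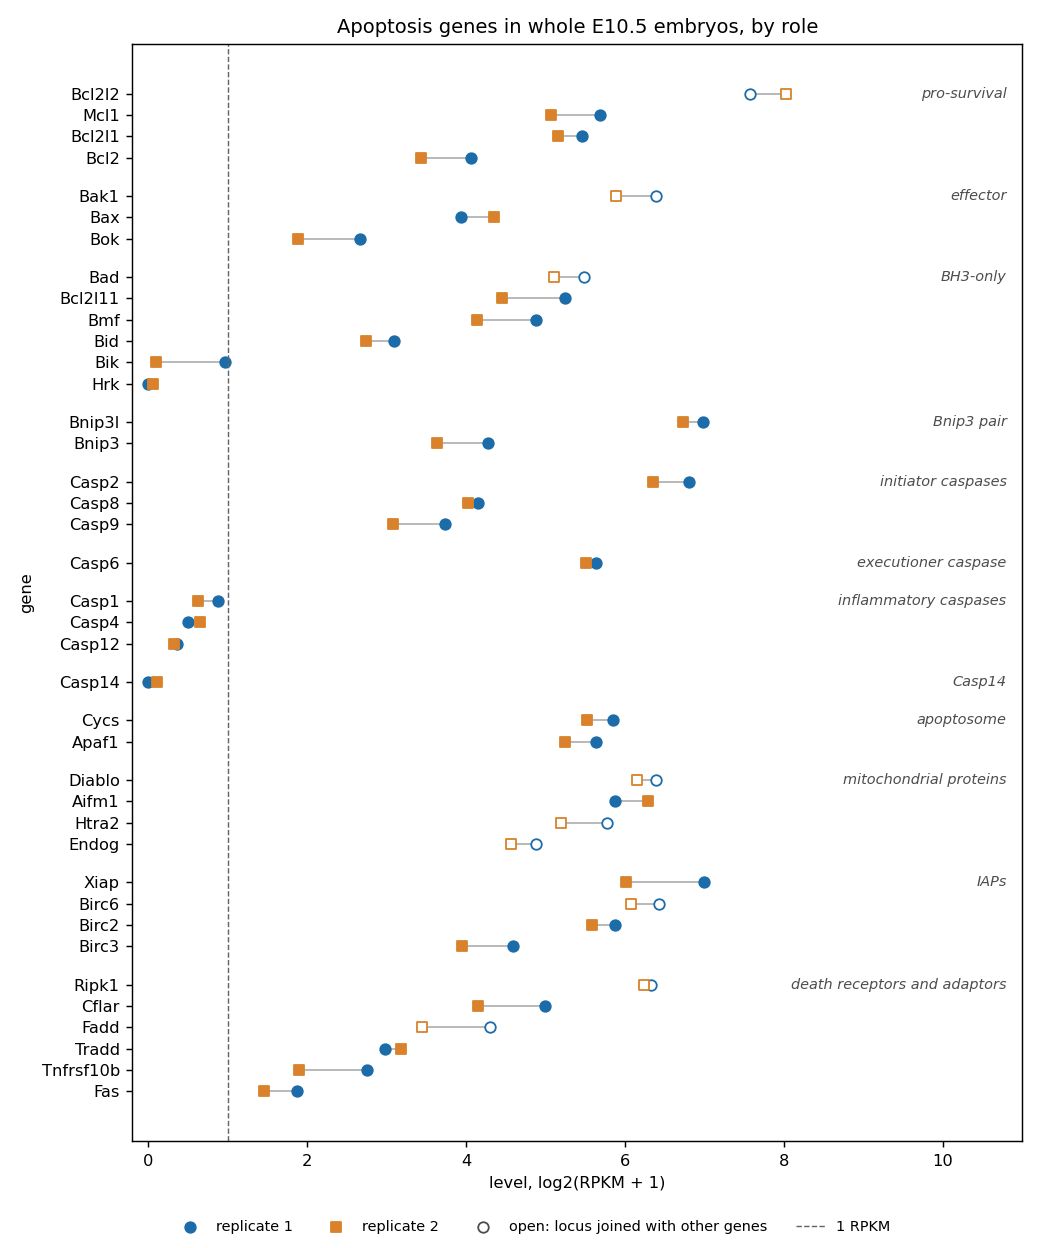
Level of each of the 39 apoptosis genes as log2(RPKM + 1) (x axis), grouped by role (y axis), with circles for replicate 1 and squares for replicate 2; open points are joined loci and the dashed line is 1 RPKM. The 6 undetected genes lie left of the line in both replicates, and the joined locus of Bcl2l2 is farthest to the right.

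The BH3-only genes, whose products sense damage or lost survival signals, split into 4 detected and 2 undetected genes. Bcl2l11, which encodes Bim, stood at 36.9 and 20.8 RPKM and Bmf, whose protein is held at the cytoskeleton, at 28.4 and 16.6 RPKM. These 2 lay close together in both replicates (0.34 ± 0.04). Bad, which is controlled by phosphorylation, read 43.7 and 33.3 RPKM in a locus joined with Gpr137. Bid, the protein that links death receptors to mitochondria, was lower at 7.52 and 5.70 RPKM, and was below the Bad locus beyond the spread (-2.37 ± 0.02).

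Hrk, a BH3-only gene known from neurons deprived of trophic factors, had 0 reads in replicate 1 and 1 read in replicate 2. In CPM, read counts scaled to the library's sum over loci, the exact 95% Poisson interval of 0 reads in replicate 1 reaches 0.201. The single read of replicate 2 amounted to 0.00851 CPM, with an interval of 0.000215 to 0.0474. The difference between Bcl2l11 and Hrk (4.81 ± 0.61 on the log2(RPKM + 1) scale) depends on the pseudocount, as Hrk is at or near 0. Bik had 7 reads in replicate 1 and 3 in the deeper replicate 2, or 0.382 CPM (0.154 to 0.787) and 0.0255 CPM (0.00526 to 0.0746). The intervals of the replicates did not overlap. Such intervals cover counting error alone and do not allow for the common shift between the libraries, -0.53 in CPM, described further on. The lack of overlap was not particular to Bik. Bcl2 (22.4 to 27.0 and 13.0 to 14.4 CPM) and Mcl1 (39.9 to 45.9 and 23.5 to 25.3 CPM) did not overlap either. The share of such loci in the series was not counted, so the lack of overlap is not read as a result about these genes. With so few reads Bik stayed under 1 RPKM in both, at 0.958 and 0.0722.

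Bnip3 and Bnip3l, relatives of the BH3-only genes that act in the removal of mitochondria, including from maturing red cells in the case of Bnip3l, were both detected. Bnip3l stood at 125 and 105 RPKM, above 92.6% of protein-coding loci by its mean, and Bnip3 at 18.4 and 11.4 RPKM. Bnip3 was below Bnip3l in both replicates by far more than the spread (-2.90 ± 0.28, limit 1.04).

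Among the initiator caspases, Casp2 was the highest at 111 and 80.4 RPKM. Casp2, which is activated by the PIDDosome complex, lay above the death receptor caspase Casp8 by 2.49 ± 0.24 and above the apoptosome caspase Casp9 by 3.17 ± 0.14, both beyond the spread. Casp9 read 12.3 and 7.45 RPKM in its own locus, and 11.6 and 6.93 RPKM in the locus joined with Cela2a. It did not differ from Casp8 beyond the spread (-0.68 ± 0.38), and with its loci summed the difference was 0.21 ± 0.41, of the other sign. The executioner Casp6 stood at 48.8 and 44.6 RPKM.

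Casp1, Casp4 and Casp12, which process cytokines or respond to bacterial products and stress, were all undetected. They are neighbours on chromosome 9 in the RefSeq annotation. Casp1 had 16 and 59 reads (0.828 and 0.537 RPKM), Casp4 had 7 and 23 reads (0.407 and 0.570 RPKM), and Casp12 had 5 and 18 reads (0.280 and 0.254 RPKM). Casp1 and Casp4 could not be ranked in RPKM, as their order changed between the replicates. The length term of Casp4 differed between the libraries, as described further on. In CPM, which uses no length and so does not rank genes, Casp1 read 0.873 and 0.502 and Casp4 0.382 and 0.196, in the same order in both. Macrophages are known for Casp1. Of the 8 macrophage markers, all were measured and 6 detected, with none at 0 reads and a summed level of 39.4 and 31.4 RPKM. The part of macrophages in the caspase reads was not tested. Casp8 exceeded Casp1 by 3.34 ± 0.09. Birc2 and Birc3, also neighbours on chromosome 9, were both detected.

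Casp14, which acts in the cornification of the epidermis, had 0 reads in replicate 1 and 4 in replicate 2 (0.0340 CPM, interval 0.00927 to 0.0871). Of 5 markers of cornified epidermis 4 were measured and 1 detected, Krt10, in a joined locus. The list summed to 12.8 and 6.49 RPKM, of which the Krt10 locus gave 12.0 and 6.09, and none of the measured markers was at 0 reads in both replicates. Casp6 exceeded Casp14 by 5.52 ± 0.16, the widest of the 32 pair differences, and this value too depends on the pseudocount.

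The apoptosome genes stood at similar levels, with Apaf1, the scaffold, at 48.8 and 36.8 RPKM and Cycs, which encodes cytochrome c, at 56.5 and 44.8 RPKM. Their difference was 0.24 ± 0.05, within the limit of 1.20. Cycs has processed pseudogenes in the mouse genome, and how shared reads were counted is not given in the sources used here. The third partner, Casp9, was lower than Apaf1 (-2.03 ± 0.18) in its own locus, beyond the spread. With both of its loci summed the difference was -1.15 ± 0.21 and no longer beyond it.

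The genes of mitochondrial proteins that are released in apoptosis were all detected, 3 of the 4 in joined loci. Aifm1, a flavoprotein that moves to the nucleus, had its own locus at 57.4 and 76.9 RPKM, and was 1 of the 7 genes with a higher RPKM in replicate 2. Diablo, which antagonizes inhibitor of apoptosis proteins, read 83.0 and 69.8 RPKM with AC157931.1, the protease gene Htra2 53.4 and 35.7 RPKM with Aup1, and the nuclease gene Endog 28.4 and 22.7 RPKM with Spout1. Aifm1 exceeded the Endog locus by 1.35 ± 0.51, beyond the limit of 1.25, although in replicate 1 taken alone the difference of 0.99 was within it.

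All 4 genes of inhibitor of apoptosis proteins were detected, with a median of 71.4 and 55.0 RPKM. Xiap, the direct inhibitor of executioner caspases, was at 126 and 63.3 RPKM, the largest difference between replicates below the common shift described further on. Birc6, a giant ubiquitin ligase, stood at 85.1 and 66.5 RPKM in a locus joined with a gene that has no symbol in the table of names, on 16699 and 74480 reads. Birc2, at 57.8 and 46.7 RPKM, exceeded its paralogue Birc3, at 23.02 and 14.4 RPKM, by 1.46 ± 0.24, beyond the limit of 1.10. Xiap against Birc2 (0.77 ± 0.48), Birc6 against Xiap (-0.25 ± 0.45) and Diablo against Xiap (-0.23 ± 0.52) were within it, the last 2 with opposite signs in the replicates.

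**Figure D3:**
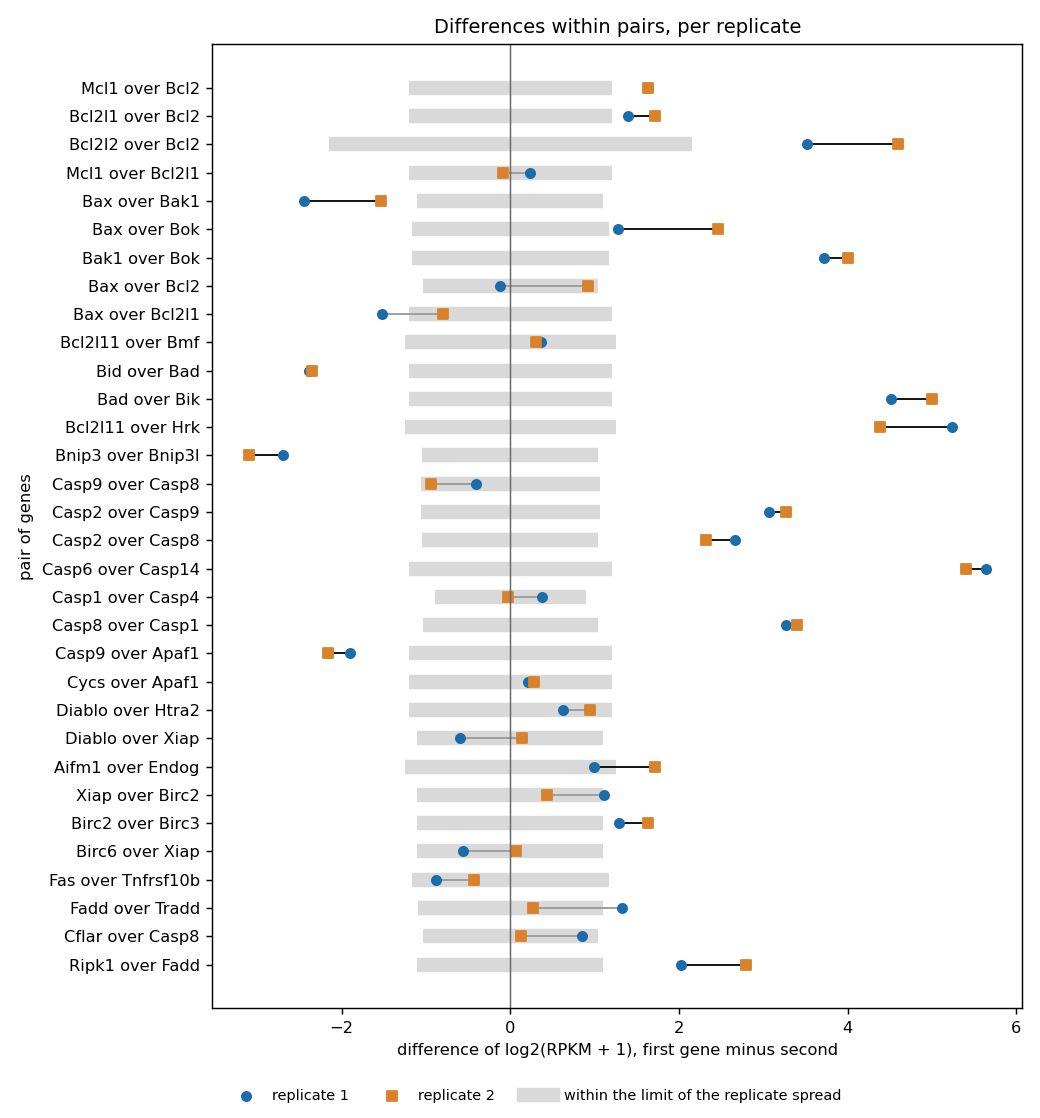
Difference of log2(RPKM + 1) between the first and the second gene of 32 pairs (x axis), with circles for replicate 1, squares for replicate 2 and grey bars for the limit of the replicate spread on either side of 0. In 18 pairs the mean lies outside the bar with the same sign in both replicates, and Casp6 over Casp14 lies farthest out.

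All 6 genes of the death receptor pathway were detected, and the 2 receptors had the lowest mean levels of them. Fas, the receptor of Fas ligand, stood at 2.66 and 1.75 RPKM on 38 and 142 reads, and the TRAIL receptor Tnfrsf10b at 5.74 and 2.72 RPKM on 105 and 283 reads. They did not differ from each other beyond the spread (-0.66 ± 0.31). Fadd, the adaptor that recruits Casp8, read 18.7 and 9.84 RPKM together with its antisense gene Faddos, and Tradd, an adaptor of the tumour necrosis factor receptor, 6.87 and 8.03 RPKM. Fadd against Tradd was 1.33 in replicate 1 and 0.26 in replicate 2, with a mean of 0.80 ± 0.75 within the limit of 1.09. Cflar, the inhibitor of Casp8 that lies beside it on chromosome 1, stood at 30.9 and 16.7 RPKM, and its mean difference from Casp8 of 0.49 ± 0.51 was within the spread. The kinase gene Ripk1 read 79.0 and 74.1 RPKM, joined with Serpinb6a and 1110046J04Rik, which lay above the Fadd locus by 2.41 ± 0.55.

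Other genes of the pathway were taken from a list of 29, of which 27 had a locus and 19 were detected, with a median of 7.90 and 6.29 RPKM. The highest were the anion channel gene Vdac2 (189 and 348 RPKM), the survivin gene Birc5 (202 and 285 RPKM), and Parp1, a substrate of executioner caspases (139 and 146 RPKM). Bcl2l12, in a joined locus (104 and 68.3 RPKM), Bcl2l13 (50.2 and 28.7 RPKM) and the p53 gene Trp53 (24.3 and 18.15 RPKM) followed. The lowest were the death ligand Tnfsf10, or TRAIL (0.202 and 0 RPKM), Fas ligand, Fasl (0.208 and 0.183 RPKM), Bcl2l14 (0.382 and 0.318 RPKM) and Xaf1 (0.287 and 0.419 RPKM). Tnf, a death ligand named after its values were seen, was also undetected, at 0.620 and 0.202 RPKM.

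The 2 libraries were also set against each other, gene by gene. Replicate 2 lay below replicate 1 by a median of -0.36 on the log2(RPKM + 1) scale over loci at 1 RPKM or more in both, and ratios are given relative to this shift. Among the embryo markers Hbb-y (2.25) and Hba-x (1.69), both embryonic globin genes, lay farthest above the shift. The heart genes Tnnt2 (0.69) and Myh6 (0.62) and the neural genes Tubb3 (0.53) and Sox2 (0.50) were also above it. Below it lay the liver bud gene Afp (-0.88), Pecam1 (-0.18), Cdh5 (-0.02) and Prrx1 (-0.01). The part of such tissues in the ratios of the apoptosis genes was not tested. None of the 33 detected apoptosis genes was past 2-fold in either direction, where 8.75% of all loci at 1 RPKM or more in a replicate and 3.95% of such protein-coding loci were. Ratios of the 33 genes ran from -0.62 for Xiap to 0.82 for the Bcl2l2 locus, with a median of -0.04. Of them 27 lay within 0.5 of the shift, as did 71.2% of all loci at 1 RPKM or more in a replicate. Bax (0.77), Aifm1 (0.78) and Tradd (0.56) were the other genes more than 0.5 above it, and Fadd (-0.502) was, with Xiap, more than 0.5 below it.

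The length implied by the RPKM values also differed between the libraries. Reads per RPKM were 5.68 times higher in replicate 2 for loci of 1 transcript. The same ratio of a gene, taken relative to 5.68, is called its length term. How the authors set the length is not given in the sources used here. Of the 37 apoptosis genes with reads in both libraries, 23 kept the same length term within 10 percent and 5 differed by more than 20 percent. For Bax the length term of replicate 2 was 0.669 times that of replicate 1, for Tradd 0.575 times, for Casp4 0.413 times, for Casp12 0.697 times and for Birc3 1.25 times. In CPM, which uses no length, Bax was above the shift of -0.53 in that unit by 0.24 and Tradd differed from it by -0.01. Birc3 read -0.28 in RPKM and 0.05 in CPM. The pairs that held Bax or Tradd also moved less between the replicates in CPM than in RPKM: the log2 CPM ratio of Bax to Bcl2 was -1.13 and -0.60, and that of Fadd to Tradd 1.70 and 1.39. Of the 33 genes 4 had another sign in CPM than in RPKM, and Aifm1 (0.60) and the Bcl2l2 locus (0.81) remained the farthest above the shift in CPM. Read counts of Bax were 206 and 1059, those of Tradd 61 and 233, and those of Aifm1 1503 and 10166.

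**Figure D4:**
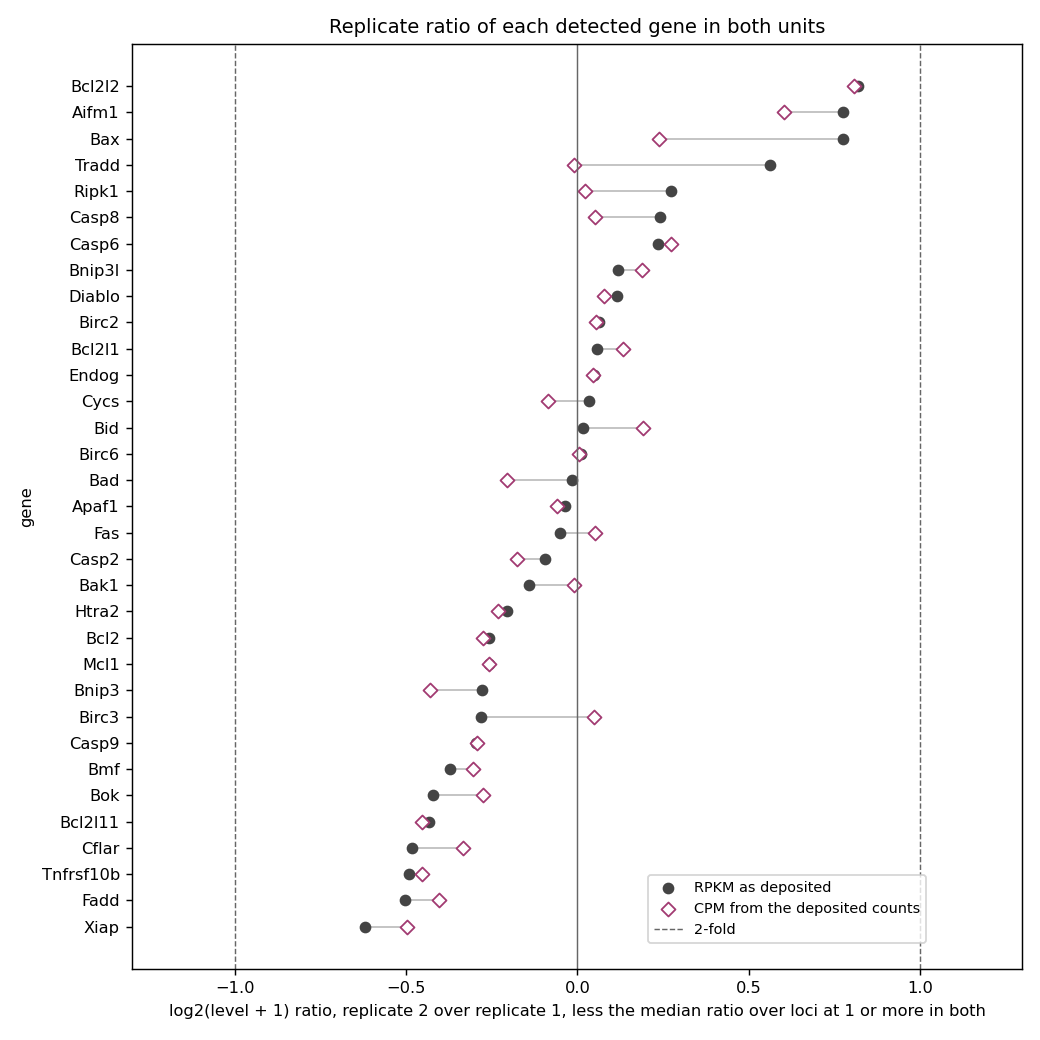
Log2 ratio of replicate 2 over replicate 1 less the median ratio (x axis) for each of the 33 detected apoptosis genes (y axis), with filled circles for RPKM and open diamonds for CPM; dashed lines mark 2-fold. All genes lie inside the dashed lines in both units, and the widest gap between units is at Tradd, at 0.56 in RPKM and -0.01 in CPM, followed by Bax.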

How the data were processed

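Total RNA of 2 whole-embryo samples was sequenced with standard Illumina libraries after TRI-reagent extraction, per the labels' protocols. TopHat and build mm9 were used, per the submitters' processing notes. Counting tool and strand use: not given in the sources used here. Reads of overlapping antisense genes, such as Fadd and Faddos, may therefore be mixed. RPKM values and unnormalized read counts per locus were deposited by the authors, per the file headers. Rows with the same gene identifiers were summed (34676 rows, 34624 loci), and 32642 of 37681 identifiers (86.6%) matched a symbol. Protein-coding classes came from a later annotation of another build, with no coordinates.

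The genes, lists, roles, pairs and rules were chosen with earlier results of these data known. RPKM was the main unit. CPM was computed from the deposited counts, scaled to their sum over loci, which was 6.42 times larger in replicate 2. Ratios used a pseudocount of 1. The spread between replicates was taken in 20 level groups of equal size. The code (Python 3.11.15, pandas 2.3.3, numpy 2.4.6, scipy 1.17.1) was tested on simulated data. With 1 group, no count test was run. All genes of the list are named, and of the other pathway genes the 6 highest, the 4 lowest; some results of the pathway are not reported here. Bcl2a1a and Bcl2a1d were not analysed here.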

Additional observations from a re-analysis of the deposited data

How the results depend on the processing

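The number of detected apoptosis genes ran from 30 (minimum of 3 RPKM) to 35 (minimum of 0.3 RPKM) and was 33 in CPM, with the highest row of each locus and with either replicate left out; 24 of the 33 had a locus of their own. None of the apoptosis genes that passed the filter was past 2-fold between replicates with a pseudocount of 0.1 or 0.01, without centring, or in CPM. Without a filter the count stayed 0 at a pseudocount of 1, under which genes below 1 RPKM can hardly pass; it was 2 at 0.1 (Bik and Casp14) and 3 at 0.01 (these and Hrk), all undetected. The pairs beyond the spread numbered 17 to 21 in the settings that kept all 32, with 18 to 20 when a replicate was left out. They were 11 of the 21 pairs of single-gene loci and 5 of the 10 pairs whose length terms were within 10 percent, where fewer pairs were counted. Restricting roles to single-gene loci moved the median level of the effectors to 10.4 RPKM (from 16.8), of the BH3-only genes to 6.61 (from 14.6), of the mitochondrial proteins to 67.1 (Aifm1 alone, from 54.1) and of the death receptors and adaptors to 5.84 (from 10.9). The ratio of pro-survival to effector sums, 3.56 ± 0.91, was 4.51 over single-gene loci and 2.30 in CPM, and 2.91 to 4.20 with a replicate left out. Without replicate 2, Aifm1 over Endog (0.99) came within the spread, and Bax over Bcl2l1 (-1.52), Xiap over Birc2 (1.11) and Fadd over Tradd (1.33) passed it. With limits from the median absolute deviation, Bax over Bcl2l1, Diablo over Htra2 and Xiap over Birc2 passed it. Summed loci of Casp9, length terms, limits from protein-coding loci, and smaller pseudocounts without a filter were alternatives chosen after seeing the data. The promoter comparison was not among the planned results. The 2-fold count needs both replicates, so it was not run with one left out. No paired analysis was possible because the series holds 1 group. Depth limits Hrk, Casp14 and Bik, with 7 reads or fewer in each replicate.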
